A study of Mus musculus with 27 samples.

Results

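The 10 genes described here, Id1, Id2, Id3, Id4, Hes1, Hey1, Heyl, Twist1, Twist2 and Msc, encode helix-loop-helix proteins that are known to hold back the myogenic transcription factors. They were taken by gene symbol from expression tables of 24825 mouse genes, and all 10 symbols were found. The genes were measured by strand-specific sequencing of polyadenylated RNA in C2C12 cells, a mouse myoblast line that fuses into myotubes when it differentiates. Control cells, cells carrying a retrovirus for full-length NFIA and cells carrying one for the Δpro#3 mutant of NFIA were compared, NFIA being a nuclear factor I protein that promotes brown adipocyte differentiation and Δpro#3 lacking its C-terminal pro#3 domain. Each kind of cell was collected on day 0 and on day 7, and a further set on day 7 followed 4 h with 10 µM forskolin, an activator of adenylyl cyclase, with 3 samples in each of the 9 groups. Per the labels, cells taken on to day 7, the control cells included, went through the same adipogenic treatment (isobutylmethylxanthine, indomethacin, dexamethasone, insulin, T3 and rosiglitazone, followed by insulin, T3 and rosiglitazone). What the control cells carried is not given in the sources used here. The forced expression came from a retroviral promoter in a transduced cell line. No label says that replicates were separate cultures, so the p-values below measure the spread between these samples, which may be technical.

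Id proteins have the helix-loop-helix but no DNA-binding basic region. They pair with the E proteins (the products of Tcf3, Tcf4 and Tcf12), which MyoD, Myf5, myogenin and MRF4 need as partners to bind E-boxes in muscle genes. Hes1, Hey1 and Heyl are repressors switched on by Notch signalling, Id1 to Id3 are well known targets of BMP and SMAD signalling, the Twist proteins bind E proteins and hinder MyoD and MEF2, and musculin (Msc, also called MyoR) occupies E-boxes as a repressor.

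Promoter sequence was looked at because NFI proteins recognise TTGGC. RefSeq start sites (GRCm38.p6) were at hand for 5 of the 10 genes, namely Id2, Id3, Id4, Twist1 and Twist2. The 250 bases before the start of 4 of them are given, 5′ to 3′ on the strand of the gene, with every TTGGC or its complement GCCAA in capitals. Id2, Id3 and Id4 are shown as Id genes that were higher than in controls with full-length NFIA at day 0, and Twist2 as a member whose level at day 7 was above control with full-length NFIA.
Id2: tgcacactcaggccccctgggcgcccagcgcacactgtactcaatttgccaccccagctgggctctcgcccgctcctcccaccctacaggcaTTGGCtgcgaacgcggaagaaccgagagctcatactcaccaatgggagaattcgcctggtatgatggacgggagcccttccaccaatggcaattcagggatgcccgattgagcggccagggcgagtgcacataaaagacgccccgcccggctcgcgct
Id3: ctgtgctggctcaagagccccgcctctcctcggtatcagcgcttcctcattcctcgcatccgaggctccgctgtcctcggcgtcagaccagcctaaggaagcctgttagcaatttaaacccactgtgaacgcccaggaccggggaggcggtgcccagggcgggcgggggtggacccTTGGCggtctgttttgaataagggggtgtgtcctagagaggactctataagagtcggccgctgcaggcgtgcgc
Id4: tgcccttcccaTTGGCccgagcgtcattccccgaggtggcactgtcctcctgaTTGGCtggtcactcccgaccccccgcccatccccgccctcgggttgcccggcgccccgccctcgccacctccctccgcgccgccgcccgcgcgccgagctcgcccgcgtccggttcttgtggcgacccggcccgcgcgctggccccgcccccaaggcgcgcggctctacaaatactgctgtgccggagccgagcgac
Twist2: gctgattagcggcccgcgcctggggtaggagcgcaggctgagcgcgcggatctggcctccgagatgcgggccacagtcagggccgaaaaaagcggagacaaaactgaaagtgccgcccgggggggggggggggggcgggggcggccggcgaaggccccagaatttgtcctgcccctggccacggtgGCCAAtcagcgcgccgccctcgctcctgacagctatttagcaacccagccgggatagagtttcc
These windows are chr12:25096093-25096342 on the minus strand for Id2, chr4:136143572-136143821 on the plus strand for Id3, chr13:48260866-48261115 on the plus strand for Id4 and chr1:91801211-91801460 on the plus strand for Twist2. Id2 and Id3 held 1 match each, beginning 158 and 74 bases before the start. Id4 held 2, beginning 239 and 197 bases before it, and Twist2 held 1, beginning 64 bases before it. Twist1, which was almost silent in all samples, held 2. On both strands 41.5% of the 32851 promoter windows of this length held TTGGC, so such a match is common. The matches of Id2, Id4 and Twist2 overlapped a CCAAT or its complement, and CCAAT alone was found in 33.8% of windows. The 15-base palindrome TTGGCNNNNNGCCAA, found in 0.0365% of windows, was in none of the 5. GGCGCC, a sequence that SMAD proteins bind, was found in Id2 and Id4 and in 9.59% of all windows, while TGACG, the core of the cAMP response element, was found in Id3, Id4 and Twist1 and in 17.8%. An E-box (CANNTG) stood in the Id2 window alone among the 5, against 66.2% of all windows. These are matches of letters and were not tested as binding sites.

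In the NCBIM37 (mm9) assembly used for the read counts the genes lay as follows. The Id genes were at chr2:152561987-152563146 (Id1, plus strand), chr12:25778666-25780957 (Id2, minus), chr4:135699412-135701670 (Id3, plus) and chr13:48356796-48359405 (Id4, plus). The Notch targets were at chr16:30064470-30067882 (Hes1, plus), chr3:8663362-8667039 (Hey1, minus) and chr4:122910799-122927118 (Heyl, plus). Twist1 was at chr12:34642536-34644682 (plus), Twist2 at chr1:93698038-93744605 (plus) and Msc at chr1:14743427-14746047 (minus). All values count fragments of the gene on its own strand, per kilobase of exon and scaled to library size (FPKM), so levels can be set side by side between genes. The length used was thus not that of the spans above, being 1335 bases for Twist2 and 4532 for Heyl.

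The library totals ran from 9567769 to 27230965 fragments with a median of 17707223, and depth differed between replicates of a group. In 3 groups, the mutant at day 7 and both constructs with forskolin, replicate 1 stood apart, with a chi-squared per gene of 11.3 to 14.2 against the other replicates, which had 3.27 to 5.76 between themselves. Calls that change without these libraries are given beside the results. Nfia, the introduced gene, was between 225 and 594 FPKM in the samples with either construct and at most 0.879 FPKM in 8 of the 9 control samples. The remaining one, control replicate 2 at day 0, held 7.35 FPKM, and the day 0 results are given with its effect where it has one. The muscle and adipocyte markers differed by time and construct. The summed FPKM of 9 myotube genes was 1270 to 1376 in control cells, 14.7 to 16.0 in full-length NFIA-expressing cells and 94.7 to 106 in Δpro#3 mutant-expressing cells before differentiation. By day 7 it was 11825 to 13856, 2060 to 2929 and 14282 to 14963 in the same order, and that of 8 adipocyte genes was 347 to 383, 13448 to 14934 and 618 to 2019. The 6 myoblast genes summed to 845 to 853, 219 to 231 and 547 to 558 FPKM at day 0 in that order. At day 7 they summed to 956 to 1062, 477 to 559 and 1319 to 1443, so the mutant then lay above control for both muscle lists. The 5 macrophage genes summed to at most 26.6 FPKM and the 5 endothelial genes to at most 1.44 in any sample. The muscle and adipocyte markers thus moved with the constructs and with time, and their part in the results below was not tested. In bulk RNA a lower level cannot be told apart from fewer cells that express the gene.

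Id3, which binds E proteins like its paralogs, was the most abundant of the 10 by FPKM, with a mean of 141 over the 27 samples and a range of 41.6 to 362. Id1 (mean 34.4, range 11.9 to 95.9) and Id2 (mean 32.3, range 13.2 to 74.9) followed. Heyl averaged 10.5 FPKM, Hes1 10.0, Twist2 7.65, Hey1 4.31 and Msc 2.39. Among the 8 genes other than Id4 and Twist1, Hey1 had the widest span between group means, from 0.693 in Δpro#3 mutant-expressing cells at day 0 to 14.4 in forskolin-treated control cells, a ratio of 20.8. The ratio of Twist2 was 2.75, and those of Id1, Id2, Id3, Hes1 and Heyl were between 5.32 and 9.41. Msc had a wider span than these, from 0.446 in forskolin-treated full-length NFIA-expressing cells to 6.03 in control cells at day 0. No ratio was formed for it because its lowest mean was under 0.5. Id4 stayed at or under 1.54 FPKM and Twist1 at or under 0.108. These 2 genes fell below the minimum of 0.5 FPKM on average and did not enter the tests, so every count below is out of 8 tested members.

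**Figure D1:**
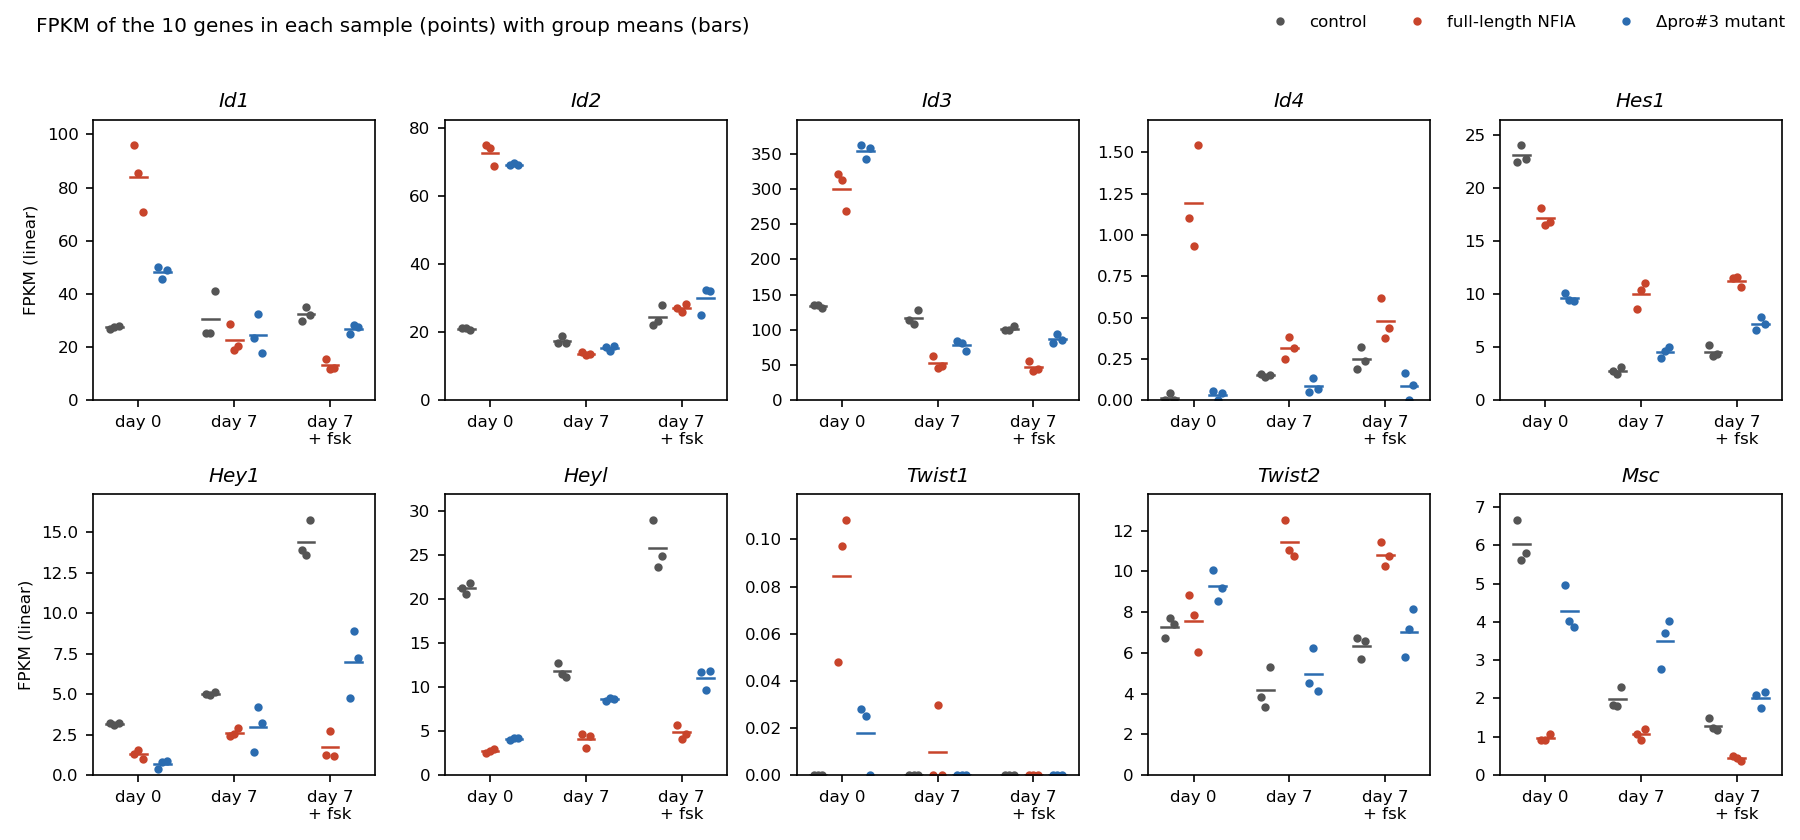
FPKM (linear axis, from 0, scaled per gene) of the 10 genes in each of the 27 samples, grouped by day 0, day 7 and day 7 with forskolin (fsk) and coloured by construct, with short bars at the group means of 3 samples. Id1, Id2 and Id3 stand highest in both NFIA-expressing groups at day 0, Hey1 and Heyl in forskolin-treated control cells, and Twist1 stays under 0.11 FPKM.

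The first comparison asked how the introduced proteins altered these genes before differentiation. At day 0 the 3 abundant Id genes were higher and Heyl, Hey1 and Hes1 lower with either protein. With full-length NFIA, 7 of the 8 tested members passed an adjusted p of 0.05 (limma on log2(FPKM + 1), Benjamini-Hochberg over 12105 genes), 3 higher and 4 lower, where 73.3% of all tested genes passed, 37.7% higher and 35.6% lower. With the Δpro#3 mutant 8 passed, 4 in each direction, against 62.2% of all genes, 32.5% higher and 29.7% lower. Over 3-fold, 3 members passed with full-length NFIA (5.24% of all genes did) and 2 with the mutant (2.18%), and none differed so far between the constructs (2.05%), or 1 with a pseudocount of 0.1 or voom on fragments. The median log2 fold change of the 8 stood at -0.18 for full-length NFIA and at -0.05 for the mutant, beside 0.01 over all tested genes in both.

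Id2 was 21.2, 21.2 and 20.8 FPKM in control cells, 74.9, 74.1 and 68.7 in full-length NFIA-expressing cells and 69.1, 69.6 and 69.1 in Δpro#3 mutant-expressing cells at day 0. Both constructs lay far above the controls with no overlap. Its log2 fold change was 1.74 ± 0.034 (SE, adjusted p = 9.42e-12) with full-length NFIA and 1.67 ± 0.034 (adjusted p = 5.09e-11) with the mutant. The difference between the constructs was -0.07 (95% interval -0.14 to 0.01, adjusted p = 0.107). Without full-length NFIA replicate 3 it was -0.11 (adjusted p = 0.00388).

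Id3 was 135, 135 and 131 FPKM in control cells, 321, 312 and 269 with full-length NFIA and 362, 343 and 358 with the mutant. The mutant-expressing samples were the highest and did not overlap the others. Id3 rose by a log2 fold change of 1.16 ± 0.058 (adjusted p = 1.37e-08) with full-length NFIA and by 1.40 ± 0.058 (adjusted p = 6.93e-09) with the mutant, and the mutant stood 0.24 ± 0.058 above full-length NFIA (adjusted p = 0.00393). Id1 took the opposite order of the constructs. It was 26.8, 27.5 and 28.1 FPKM in control cells, 95.9, 85.6 and 70.7 with full-length NFIA and 50.1, 45.6 and 48.9 with the mutant, again without overlap. The log2 fold change of Id1 was 1.57 ± 0.087 (adjusted p = 3.29e-08) with full-length NFIA and 0.79 ± 0.087 (adjusted p = 1.79e-05) with the mutant, and the mutant stood 0.78 lower than full-length NFIA (log2 fold change -0.78, adjusted p = 1.65e-05).

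Id4 was rare and appeared almost only with full-length NFIA at day 0. The 3 control samples held 0, 0.0442 and 0 FPKM, the 3 full-length NFIA-expressing samples 1.105, 0.931 and 1.54, and the 3 mutant-expressing samples 0.0550, 0 and 0.0465. These are 2, 115 and 4 fragments in all per group. Scaled to the total fragments, the ratio of full-length NFIA to control was 71.2 with an exact 95% counting interval of 19.3 to 595, and that of full-length NFIA to the mutant was 33.5 with an interval of 12.7 to 125. Such intervals cover counting error only and not the spread between samples. In a fit with no filter on low values, in which Id4 could be tested, its log2 fold change was 1.1 ± 0.087 (adjusted p = 6.97e-06) with full-length NFIA and 0.03 ± 0.087 (adjusted p = 0.851) with the mutant. Twist1 had 11 fragments over the whole series and was at 0 in 21 of the 27 samples. Of these fragments 8 were in full-length NFIA-expressing cells at day 0, where it was 0.0479, 0.0972 and 0.108 FPKM. Control cells at day 0 had none, which allows up to 0.0239 FPKM over the group (3 fragments).

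The Notch target Heyl was the member that fell most at day 0. It was 21.2, 20.6 and 21.8 FPKM in control cells, 2.51, 2.73 and 2.98 with full-length NFIA and 3.98, 4.15 and 4.21 with the mutant. The 3 groups did not overlap, full-length NFIA being the lowest. The log2 fold change was -2.57 ± 0.050 (adjusted p = 9.18e-12) with full-length NFIA and -2.12 ± 0.050 (adjusted p = 1.20e-10) with the mutant, and the mutant stood 0.45 ± 0.050 above full-length NFIA (adjusted p = 1.48e-05). Hes1 and Hey1 fell more with the mutant. Hes1 was 22.5, 24.0 and 22.7 FPKM in control cells, 18.1, 16.6 and 16.8 with full-length NFIA and 10.1, 9.45 and 9.33 with the mutant, log2 fold changes of -0.41 ± 0.044 (adjusted p = 9.45e-06) and -1.18 ± 0.044 (adjusted p = 3.34e-09). Hey1 was 3.23, 3.06 and 3.20 FPKM in control cells, 1.29, 1.56 and 0.961 with full-length NFIA and 0.393, 0.812 and 0.875 with the mutant, log2 fold changes of -0.88 ± 0.12 (adjusted p = 5.59e-05) and -1.31 ± 0.12 (adjusted p = 4.01e-06). The constructs differed from each other for Hes1 (mutant minus full-length -0.77, adjusted p = 7.89e-08) and for Hey1 (-0.43, adjusted p = 0.00927).

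Among the 8 tested members Msc, the repressor musculin, differed most between the constructs at day 0. It was 6.66, 5.62 and 5.80 FPKM in control cells, 0.913, 0.905 and 1.06 with full-length NFIA and 4.95, 4.02 and 3.85 with the mutant. The full-length NFIA-expressing samples were far below both other groups. Its log2 fold change was -1.84 ± 0.084 (adjusted p = 6.23e-09) with full-length NFIA, -0.42 ± 0.084 (adjusted p = 0.00137) with the mutant, and 1.42 ± 0.084 (adjusted p = 9.52e-08) for the mutant against full-length NFIA. Twist2 moved little. It was 6.73, 7.70 and 7.43 FPKM in control cells, 8.86, 7.87 and 6.02 with full-length NFIA and 10.1, 8.56 and 9.19 with the mutant, and the ranges of control and full-length NFIA overlapped. The difference was 0.04 (interval -0.20 to 0.28, adjusted p = 0.768) with full-length NFIA and 0.31 ± 0.11 (adjusted p = 0.0291) with the mutant, a call that was lost without control replicate 1 or 3 or mutant replicate 1 or 3 (adjusted p 0.0554 to 0.103), and with no filter on low values (0.0654). Between the constructs 7 of 8 members passed, 4 higher and 3 lower with the mutant, where 65.3% of all genes did, 33.4% higher and 31.9% lower. Twist2 is the weakest of these 7 (0.27, adjusted p = 0.0474), with overlapping ranges, and lost its call on leaving out any control replicate, full-length NFIA replicate 2 or 3, or mutant replicate 1 or 3 (adjusted p 0.0554 to 0.152), and under 5 of the alternatives on all libraries (0.0501 to 0.0969). Without full-length NFIA replicate 3 it fell to 0.13.

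**Figure D2:**
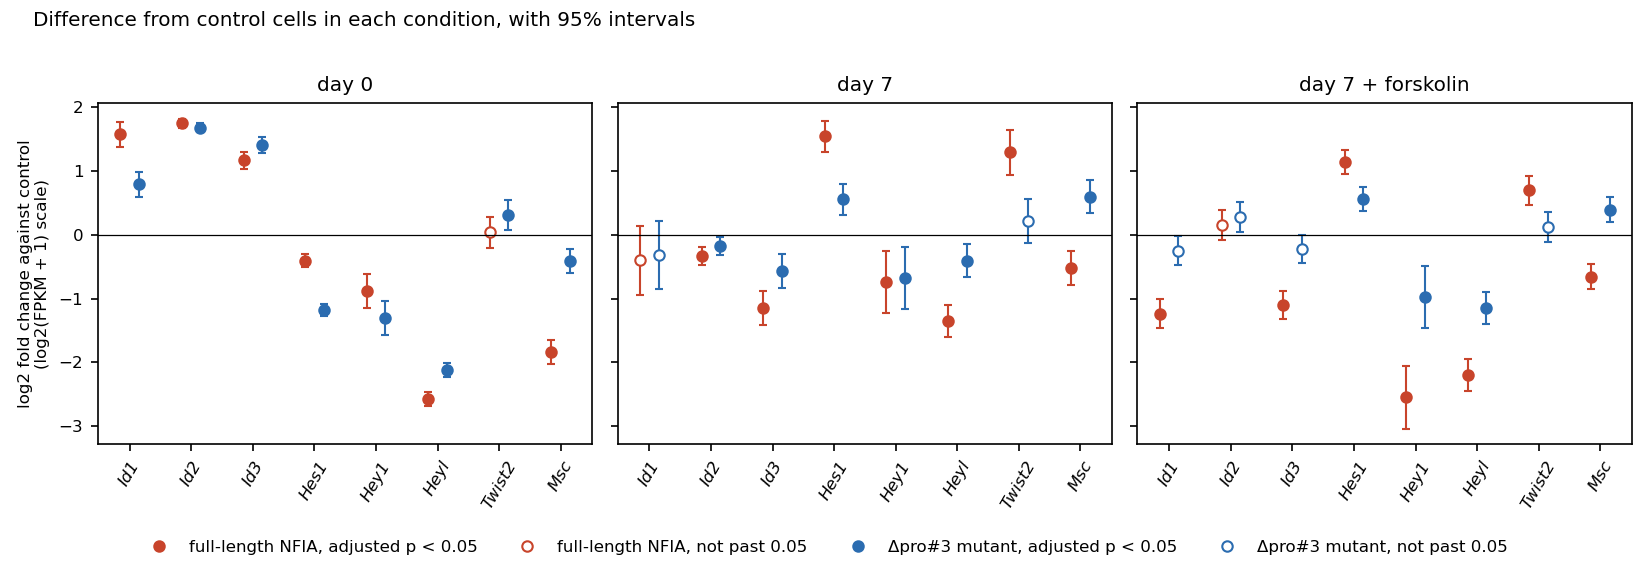
Log2 fold change of the 8 tested members against control cells (log2(FPKM + 1) scale, 3 samples a group) at day 0, day 7 and day 7 with forskolin, for full-length NFIA (red) and the Δpro#3 mutant (blue), with 95% intervals from limma and filled points where adjusted p was under 0.05. At day 0 the 3 Id genes lie between 0.79 and 1.74 and Heyl at -2.57 and -2.12, while at day 7 Hes1 and Twist2 lie highest with full-length NFIA at 1.54 and 1.29.

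At day 7 Id1, Id2 and Id3 no longer stood above the controls. With full-length NFIA 7 members passed, 2 higher and 5 lower, where 72.4% of 12324 tested genes did, 31.3% higher and 41.1% lower, and with the mutant 6 passed, 2 higher and 4 lower, where 48.8% did, 21.3% higher and 27.5% lower. No member exceeded 3-fold in either comparison, which 8.17% and 1.44% of all genes did. With a pseudocount of 0.1, with median-ratio scaling or with voom on fragments, 1 member exceeded it with full-length NFIA. The members' median log2 fold change was -0.46 with full-length NFIA beside -0.08 over all genes, and -0.25 with the mutant beside -0.04.

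Id3 was 114, 109 and 128 FPKM in control cells at day 7, 63.0, 45.4 and 49.4 with full-length NFIA and 84.6, 81.3 and 69.6 with the mutant. The 3 groups kept apart, control cells being highest. Its log2 fold change was -1.15 ± 0.12 (adjusted p = 9.84e-06) with full-length NFIA and -0.57 ± 0.12 (adjusted p = 0.00304) with the mutant. Id2 was 16.8, 18.8 and 17.0 FPKM in control cells, 14.2, 13.2 and 13.5 with full-length NFIA and 15.6, 14.5 and 16.0 with the mutant, so the groups were close though they did not overlap. With full-length NFIA Id2 fell by 0.34 on the log2 scale (adjusted p = 0.000659). The mutant value of -0.18 had an adjusted p of 0.0398 that rose to between 0.0530 and 0.148 on leaving out any of 5 of the 9 libraries (control replicate 2 or 3, full-length NFIA replicate 3, mutant replicate 1 or 2), and to between 0.0629 and 0.169 under 4 of the alternatives on all libraries. Id1 was 25.4, 25.3 and 41.2 FPKM in control cells, 28.6, 19.0 and 20.5 with full-length NFIA and 23.4, 32.3 and 17.6 with the mutant, and all 3 ranges overlapped. Neither difference passed, at -0.40 (interval -0.94 to 0.14) and -0.32 (interval -0.86 to 0.22). Id4 was 0.158, 0.143 and 0.154 FPKM in control cells, 0.252, 0.380 and 0.316 with full-length NFIA and 0.0533, 0.137 and 0.0680 with the mutant, from 11, 23 and 8 fragments. The full-length NFIA-expressing samples lay above all controls, with a ratio of 2.20 (exact 95% counting interval 1.03 to 5.002), and in the fit with no filter the log2 fold change of Id4 was 0.19 (adjusted p = 0.00408).

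Hes1, highest in control cells at day 0, was lowest in them at day 7. It was 2.76, 2.46 and 3.17 FPKM there, 8.64, 10.4 and 11.04 with full-length NFIA and 3.96, 4.68 and 5.06 with the mutant, and the groups did not overlap. It rose by a log2 fold change of 1.54 ± 0.11 (adjusted p = 5.83e-07) with full-length NFIA and 0.55 ± 0.11 (adjusted p = 0.00232) with the mutant. Twist2 was 3.84, 3.34 and 5.30 FPKM in control cells, 12.5, 11.1 and 10.8 with full-length NFIA and 4.50, 6.25 and 4.10 with the mutant. Full-length NFIA stood apart, while mutant and control overlapped. The log2 fold change was 1.29 ± 0.16 (adjusted p = 3.11e-05) with full-length NFIA and 0.21 (interval -0.14 to 0.55, adjusted p = 0.296) with the mutant.

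Heyl remained lower than in control cells at day 7, at 12.7, 11.4 and 11.1 FPKM in controls, 4.66, 3.07 and 4.44 with full-length NFIA and 8.45, 8.75 and 8.65 with the mutant. The log2 fold changes of Heyl were -1.35 ± 0.11 (adjusted p = 1.95e-06) and -0.41 ± 0.11 (adjusted p = 0.0136), the latter -0.35 with an adjusted p of 0.0549 without control replicate 1. Hey1 was 5.002, 4.96 and 5.11 FPKM in control cells, 2.42, 2.51 and 2.90 with full-length NFIA and 1.44, 4.18 and 3.20 with the mutant, whose replicates spread more than those of the other groups. It fell by 0.74 on the log2 scale with full-length NFIA (adjusted p = 0.0104). The mutant value of -0.68 (adjusted p = 0.0253) lost its call on leaving out any control replicate (adjusted p 0.0582 to 0.0647) or applying no filter (adjusted p = 0.0554), and shrank to -0.37 without mutant replicate 1. Msc turned with the construct. It was 1.84, 1.80 and 2.29 FPKM in control cells, 1.07, 0.914 and 1.199 with full-length NFIA and 2.78, 3.72 and 4.03 with the mutant, with no overlap. Msc fell by 0.53 on the log2 scale with full-length NFIA (adjusted p = 0.00232) and rose by 0.59 with the mutant (adjusted p = 0.00232).

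Between the constructs at day 7, 6 of 8 members passed, 4 higher and 2 lower with the mutant, where 63.7% of genes did, 34.3% higher and 29.4% lower, and none exceeded 3-fold (6.3% of genes), or 1 with a pseudocount of 0.1 or voom on fragments. Msc was 1.12 ± 0.12 higher with the mutant (adjusted p = 1.62e-05), Heyl 0.94 ± 0.11 (adjusted p = 4.24e-05) and Id3 0.58 ± 0.12 (adjusted p = 0.00174), on the log2 scale. Twist2 was lower with the mutant, at -1.08 ± 0.16 (adjusted p = 0.000156), as was Hes1, at -0.98 ± 0.11 (adjusted p = 2.44e-05). Id2 differed by 0.16 (adjusted p = 0.0425), a call lost without any of 6 of the 9 libraries, namely replicates 1 and 3 of the control, 2 and 3 of full-length NFIA, and 1 and 3 of the mutant (adjusted p 0.0508 to 0.128), and under 5 of the alternatives on all libraries (0.0510 to 0.122). Hey1 differed by 0.06 (interval -0.42 to 0.54), and by 0.37 (adjusted p = 0.00950) without mutant replicate 1, its low sample.

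From day 0 to day 7 Hes1 and Msc fell most in control cells. In control cells 6 members passed, 1 higher and 5 lower, where 78.7% of 12408 genes did, 36% higher and 42.7% lower. Hes1 fell by 2.67 on the log2 scale (SE 0.087, adjusted p = 5.33e-14), the sole member past 3-fold, which 6.7% of genes passed. Msc fell by 1.24 (adjusted p = 1.13e-08), Heyl by 0.80 (adjusted p = 4.62e-07), Twist2 by 0.70 (adjusted p = 0.000320) and Id2 by 0.25 (adjusted p = 0.000132). Hey1 rose by 0.53 (adjusted p = 0.0175, and 0.0557 with a pseudocount of 0.1). The differences of Id1, 0.12 (interval -0.31 to 0.54), and Id3, -0.19 (interval -0.41 to 0.02, adjusted p = 0.0894), did not pass. Id3 passed at -0.26 (adjusted p = 0.0416) without control replicate 3 of day 7, and at -0.19 (adjusted p = 0.0327) without full-length NFIA replicate 1 of day 7. It also passed (adjusted p = 0.0144) when the 2 groups were fitted alone. Id4 averaged 0.0147 FPKM at day 0, from 2 fragments, and 0.152 at day 7, from 11, with no overlap, and in the fit with no filter its log2 fold change was 0.18 (adjusted p = 0.0409).

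In full-length NFIA-expressing cells Id1, Id2 and Id3 fell most. There 7 members passed, 3 higher and 4 lower, where 79.7% of genes did, 33.2% higher and 46.5% lower. Higher genes made up 41.6% of all calls in this comparison, and 51.8% after median-ratio scaling, which moved the median of all genes by 0.14. Id3 fell by 2.5 ± 0.10 on the log2 scale (adjusted p = 4.88e-13), Id2 by 2.33 ± 0.048 (adjusted p = 1.05e-16) and Id1 by 1.86 ± 0.20 (adjusted p = 2.18e-07), all past 3-fold, as were 10.1% of genes. Hes1 fell by 0.73 (adjusted p = 7.48e-07). Hey1, Twist2 and Heyl rose by 0.67, 0.55 and 0.42 (adjusted p = 0.00401, 0.00253 and 0.000479), while Msc differed by 0.07 (interval -0.15 to 0.30). In Δpro#3 mutant-expressing cells 7 passed, 2 higher and 5 lower, where 79.5% did, 32.8% higher and 46.7% lower, with a shift of 0.12 in the median of all genes under median-ratio scaling. Id3 and Id2 fell there by 2.16 and 2.10 (adjusted p = 5.20e-12 and 4.93e-16), the 2 members past 3-fold (6.84% of genes), and Id1 by 0.99 (adjusted p = 0.000247). Hes1 fell by 0.94 and Twist2 by 0.80 (adjusted p = 3.33e-08 and 8.77e-05), and Hey1 and Heyl rose by 1.16 and 0.91 (adjusted p = 2.98e-05 and 9.74e-08). Msc, at -0.23 (adjusted p = 0.0565), passed without replicate 3 of day 0 (-0.29, adjusted p = 0.0382) or of day 7 (-0.32, adjusted p = 0.0183).

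**Figure D3:**
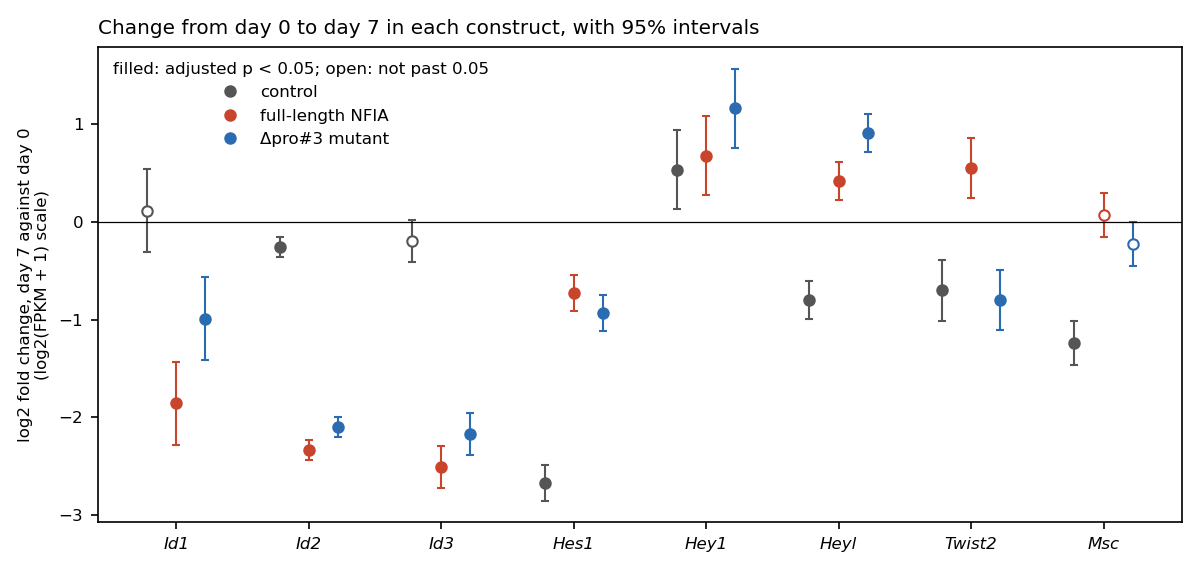
Log2 fold change from day 0 to day 7 of the 8 tested members (log2(FPKM + 1) scale, 3 samples a group) in control (grey), full-length NFIA-expressing (red) and Δpro#3 mutant-expressing cells (blue), with 95% intervals from limma and filled points where adjusted p was under 0.05. The Id genes lie between -2.5 and -0.99 with either construct and between -0.25 and 0.12 in control cells, and Hes1 lies lowest in control cells at -2.67.

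These changes over time were then tested against each other. Against control cells, full-length NFIA-expressing cells had a different change for 7 members, 4 higher and 3 lower, where 71.2% of genes differed, 31.1% higher and 40.1% lower, and 4 of the 7 were past 3-fold (7.62% of genes). The log2 difference in change was -2.31 for Id3 (adjusted p = 3.97e-10), -2.08 for Id2 (adjusted p = 1.52e-13) and -1.97 for Id1 (adjusted p = 1.01e-05). It was higher for Hes1 (1.94, adjusted p = 4.80e-10), Msc (1.31, adjusted p = 7.36e-07), Twist2 (1.25, adjusted p = 4.31e-05) and Heyl (1.22, adjusted p = 3.07e-07). For the mutant against control cells 6 members passed, 3 in each direction, where 44.7% of genes did, 18.9% higher and 25.9% lower, and 4 were past 3-fold (2.36% of genes). Higher differences made up 42.2% of all calls, and 53.1% after median-ratio scaling. The 6 members were Id3 (-1.97, adjusted p = 1.34e-08), Id2 (-1.85, adjusted p = 6.49e-12), Id1 (-1.11, adjusted p = 0.00451), Hes1 (1.73, adjusted p = 9.41e-09), Heyl (1.71, adjusted p = 2.27e-08) and Msc (1.01, adjusted p = 4.34e-05). Hey1, at 0.63 (adjusted p = 0.0684), reached 0.94 (adjusted p = 0.000324) without mutant replicate 1 of day 7, 1.23 (adjusted p = 0.0266) with a pseudocount of 0.1 and 1.57 (adjusted p = 0.00197) with voom on fragments. All of these share the control samples.

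Between the constructs the change over time differed for 5 members, 4 higher and 1 lower in the mutant, where 63.5% of genes differed, 33.9% higher and 29.5% lower. Twist2 had the largest of these differences, at -1.35 ± 0.21 (adjusted p = 2.57e-05), having risen with full-length NFIA and fallen with the mutant. Id1 (0.86, adjusted p = 0.0140), Heyl (0.49, adjusted p = 0.00360) and Id2 (0.23, adjusted p = 0.00774) followed. Id3, at 0.34 (adjusted p = 0.0498), lost its call without any of 14 of the 18 libraries (adjusted p 0.0520 to 0.143), that is all but full-length NFIA replicate 3 of day 0 and, at day 7, control replicate 3, full-length NFIA replicate 1 and mutant replicate 3. It also lost it under 3 of the alternatives on all libraries (adjusted p 0.0574 to 0.0823). Members that missed the threshold but passed it without 1 library were Hes1 (-0.30, adjusted p = 0.0292, without full-length NFIA replicate 1 of day 7), Hey1 (0.80, adjusted p = 0.000668, without mutant replicate 1 of day 7, and 1.15, adjusted p = 0.0281, with all libraries under voom on fragments) and Msc (-0.39, adjusted p = 0.0355, without mutant replicate 3 of day 7).

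Forskolin at day 7 raised the Notch targets in control cells. There 6 members passed, 5 higher and 1 lower, where 20.5% of 12245 genes did, 7.05% higher and 13.5% lower, so the members' share was above that of all genes in the higher direction. Higher genes made up 34.3% of all calls, and 51.7% after median-ratio scaling. The median log2 fold change of the 8 members was 0.49 in control cells, -0.11 with full-length NFIA and 0.38 with the mutant, beside -0.05, -0.15 and -0.06 over all genes. Of 15 listed cAMP-responsive genes 14 were tested, with 10 higher and 1 lower in control cells, 13 higher with full-length NFIA, and 12 higher and 1 lower with the mutant. Over all tested genes 7.05%, 13.9% and 11.9% were higher and 13.5%, 41.5% and 23.9% lower in that order. Pde4b, a cAMP phosphodiesterase, rose by 1.97, 2.20 and 1.86 on the log2 scale in the same order. It changed most of the 14 in control cells and with the mutant, while with full-length NFIA the nuclear receptor genes Nr4a3 (4.51), Nr4a1 (3.27) and Nr4a2 (2.72) did.

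Hey1 was 13.9, 13.6 and 15.8 FPKM in forskolin-treated control cells, 1.27, 2.72 and 1.16 with full-length NFIA and 4.78, 8.92 and 7.25 with the mutant. Set against the untreated day 7 samples above, treated control cells lay above all of theirs, treated mutant cells likewise, and treated full-length NFIA-expressing cells overlapped theirs. Its log2 fold change was 1.35 ± 0.24 in control cells (adjusted p = 0.000630) and 1.05 ± 0.24 with the mutant (adjusted p = 0.00280). With full-length NFIA it was -0.45 (interval -0.96 to 0.06, adjusted p = 0.122), and -0.70 (adjusted p = 0.0223) without treated replicate 2. Heyl was 29.0, 23.6 and 24.8 FPKM in treated control cells, 5.73, 4.12 and 4.67 with full-length NFIA and 11.7, 9.67 and 11.8 with the mutant. It rose by 1.07 ± 0.12 in control cells (adjusted p = 7.55e-06), and the value with full-length NFIA was 0.21 (adjusted p = 0.148). Heyl rose by 0.32 with the mutant at an adjusted p of 0.0488, which passed the threshold no longer without any of 12 of the 18 libraries (adjusted p 0.0512 to 0.147) or under 3 of the alternatives on all libraries (0.0523 to 0.0848). These libraries were replicates 1, 2 and 3 of the untreated control and untreated mutant, replicate 3 of untreated and treated full-length NFIA, replicates 2 and 3 of the treated control, and 1 and 3 of the treated mutant. Hes1 was 5.21, 4.19 and 4.39 FPKM in treated control cells, 11.5, 11.6 and 10.6 with full-length NFIA and 6.66, 7.82 and 7.22 with the mutant. It rose by 0.56 in control cells (adjusted p = 0.000683) and by 0.57 with the mutant (adjusted p = 0.000355), and the full-length NFIA value of 0.16 (adjusted p = 0.195) did not pass.

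Id2 rose with forskolin in all 3 kinds of cells. It was 22.2, 23.4 and 28.0 FPKM in treated control cells, 27.2, 25.9 and 28.3 with full-length NFIA and 25.2, 32.4 and 32.1 with the mutant, each above its untreated samples with no overlap. The log2 fold changes of Id2 were 0.46 ± 0.091 (adjusted p = 0.00171), 0.94 ± 0.091 (adjusted p = 3.25e-07) and 0.91 ± 0.091 (adjusted p = 1.15e-06). Id1 was 29.9, 35.2 and 31.9 FPKM in treated control cells, 15.7, 11.9 and 12.1 with full-length NFIA and 25.1, 28.1 and 27.7 with the mutant. It fell by 0.73 on the log2 scale with full-length NFIA (adjusted p = 0.00612), and the values in control cells (0.11) and with the mutant (0.18) did not pass. Id3 was 99.9, 99.2 and 106 FPKM, 55.5, 41.6 and 43.9, and 80.9, 94.7 and 85.4 in the same order. Its differences of -0.20, -0.16 and 0.15 did not pass. Id4 was 0.192, 0.324 and 0.237 FPKM in treated control cells, 0.616, 0.379 and 0.436 with full-length NFIA and 0.163, 0 and 0.0949 with the mutant, from 22, 37 and 8 fragments.

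Msc fell with forskolin in all 3, to 1.48, 1.23 and 1.17 FPKM in control cells, 0.506, 0.457 and 0.375 with full-length NFIA and 2.08, 1.76 and 2.16 with the mutant. The log2 fold changes of Msc were -0.37 (adjusted p = 0.0173), -0.51 (adjusted p = 0.000590) and -0.58 (adjusted p = 0.000431), the first lost without untreated control replicate 3 or treated control replicate 2 or 3 (adjusted p 0.0596 to 0.0841) and with voom on fragments (0.0860). Twist2 was 6.72, 5.68 and 6.60 FPKM in treated control cells, 11.4, 10.3 and 10.7 with full-length NFIA and 5.77, 7.16 and 8.14 with the mutant. It rose by 0.52 in control cells (adjusted p = 0.0148) and 0.44 with the mutant (adjusted p = 0.0243), and each call was lost without any of 4 libraries, all of the groups compared (adjusted p 0.0516 to 0.0827 and 0.0687 to 0.114), and that of the mutant also with the 2 groups fitted alone (0.0731). In all, 3 members passed with full-length NFIA, 1 higher and 2 lower, where 55.4% of genes did, 13.9% higher and 41.5% lower, and 6 with the mutant, 5 higher and 1 lower, where 35.8% did, 11.9% higher and 23.9% lower. Of the 8 adipocyte markers 1 rose and 6 fell with forskolin in the mutant, 3 of them past 3-fold (median log2 fold change -1.17 beside -0.06 over all genes). Their sum was 618 to 2019 FPKM untreated (median 726) and 545 to 900 treated (median 581), so a single untreated sample held the high end. In control cells 1 fell, with full-length NFIA 1 rose and 3 fell, and 3 of 9 myotube markers fell with full-length NFIA. Their part in the forskolin results was not tested. With full-length NFIA higher genes were 25.0% of all calls, and 44.0% after median-ratio scaling, which moved the median of all genes by 0.13 and brought the members' count to 5, adding Hes1 (0.29, adjusted p = 0.0257) and Heyl (0.33, adjusted p = 0.0295).

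**Figure D4:**
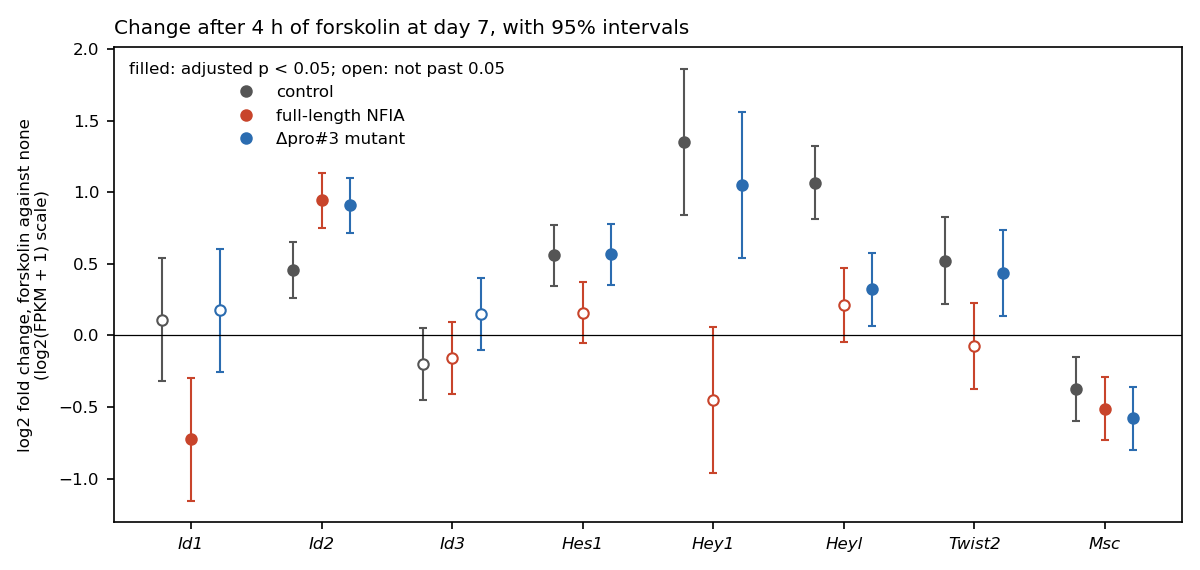
Log2 fold change of the 8 tested members after 4 h of forskolin at day 7 (log2(FPKM + 1) scale, 3 samples a group) in control (grey), full-length NFIA-expressing (red) and Δpro#3 mutant-expressing cells (blue), with 95% intervals from limma and filled points where adjusted p was under 0.05. Hey1 lies at 1.35 and 1.05 in control and mutant-expressing cells and at -0.45 with full-length NFIA, and Id2 lies above 0 and Msc below 0 in all 3.

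The test of the forskolin responses against each other put Hey1 first. Full-length NFIA-expressing and control cells differed for 6 members, 1 higher and 5 lower, where 30.6% of genes differed, 9.16% higher and 21.5% lower. Higher differences were 29.9% of all calls, and 45.3% after median-ratio scaling. The Hey1 response was lower by 1.81 on the log2 scale with full-length NFIA (log2 difference -1.81 ± 0.34, adjusted p = 0.000815), the sole member past 3-fold, which 0.572% of genes passed. The Heyl response was lower as well (-0.85 ± 0.17, adjusted p = 0.00136) and that of Id2 higher (0.48 ± 0.13, adjusted p = 0.00968). The remaining 3, Id1 (-0.84, adjusted p = 0.0367), Twist2 (-0.60, adjusted p = 0.0338) and Hes1 (-0.40, adjusted p = 0.0416), lost the call without any of 7, 7 and 9 of the 18 libraries (adjusted p 0.0586 to 0.0988, 0.0592 to 0.0919 and 0.0505 to 0.114). These always included untreated control replicates 1 and 2, treated control replicate 3 and treated full-length NFIA replicates 2 and 3, with untreated full-length NFIA replicate 1 and treated control replicate 2 for Id1, untreated full-length NFIA replicate 1 and treated control replicate 1 for Twist2, and untreated full-length NFIA replicates 2 and 3, treated control replicate 1 and treated mutant replicate 3 for Hes1. With median-ratio scaling or no filter on low values the count was 3. With voom on fragments Id1 and Hes1 lost their calls (adjusted p = 0.0528 and 0.0531).

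The mutant and the control cells differed in response for 1 member, lower, where 4.97% of genes differed, 2.5% lower. This was Heyl (-0.75, adjusted p = 0.0179), at -0.66 without treated control replicate 1 or treated mutant replicate 2 (adjusted p 0.0534 to 0.0553). The Hey1 difference was -0.30 (interval -1.02 to 0.42), and Id2, at 0.45 (adjusted p = 0.0557), passed without treated control replicate 3 or treated mutant replicate 1 (0.55 to 0.56, adjusted p 0.00555 to 0.0202), with a minimum mean of 5 FPKM or with voom on fragments (adjusted p 0.0314 to 0.0496). Between the constructs 3 members differed, all higher in the mutant, where 21.7% of genes did, 15.8% higher, and higher differences were 72.9% of all calls, or 51.3% after median-ratio scaling. Hey1 led again (1.5 ± 0.34, adjusted p = 0.00481). Id1 (0.90, adjusted p = 0.0332) and Hes1 (0.41, adjusted p = 0.0493) lost their calls without any of 7 and 12 of the 18 libraries (adjusted p 0.0514 to 0.0883 and 0.0522 to 0.125). For Id1 these were untreated full-length NFIA replicate 1, untreated mutant replicates 1 and 3, and replicates 2 and 3 of treated full-length NFIA and treated mutant. For Hes1 they were all but untreated control replicates 2 and 3, untreated full-length NFIA replicate 1, untreated mutant replicate 3, treated control replicate 1 and treated mutant replicate 1. The count was 1 with median-ratio scaling, no filter or voom on fragments. Hes1 also lost its call with a pseudocount of 0.1 (0.48, adjusted p = 0.0519). Twist2 (0.51, adjusted p = 0.0823) passed without untreated control replicate 3, untreated mutant replicate 2 or treated mutant replicate 1 (adjusted p 0.0219 to 0.0496).

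In forskolin-treated samples taken alone, 7 members differed between full-length NFIA-expressing and control cells, 2 higher and 5 lower, where 72.5% of 12121 genes did, 25.5% higher and 47% lower. Higher genes were 35.2% of all calls, and 49.8% after median-ratio scaling, which moved the median of all genes by 0.17. Hey1 (-2.55 ± 0.22, adjusted p = 1.48e-06) and Heyl (-2.20 ± 0.11, adjusted p = 2.33e-08) were past 3-fold, as were 8.02% of genes. Id1 (-1.24), Id3 (-1.11) and Msc (-0.66) were lower and Hes1 (1.13) and Twist2 (0.69) higher, with adjusted p-values of at most 0.000135. Id2 differed by 0.15 (adjusted p = 0.229), by 0.33 (adjusted p = 0.0133) after that scaling and by 0.34 (adjusted p = 0.0115) with voom on fragments. With the mutant against control cells 4 members passed, 2 higher and 2 lower, where 46.6% did, 19.5% higher and 27.1% lower, and none exceeded 3-fold (1.55% of genes). These were Heyl (-1.15, adjusted p = 1.84e-05), Hey1 (-0.98, adjusted p = 0.00408), Hes1 (0.56, adjusted p = 0.000315) and Msc (0.39, adjusted p = 0.00443). Id2 (0.27, adjusted p = 0.0535), Id1 (-0.25, adjusted p = 0.0612) and Id3 (-0.22, adjusted p = 0.0860) missed it, and Id2 passed under 4 of the alternatives and without treated control replicate 3 or mutant replicate 1, as Id1 and Id3 did without full-length NFIA replicate 1. Id1 and Id3 also passed when the 2 groups were fitted alone (adjusted p = 0.0185 and 0.0198). Between the constructs 7 members differed, 5 higher and 2 lower in the mutant, where 66.2% of genes did, 42% higher and 24.2% lower, with 63.4% of calls higher, or 50.02% after median-ratio scaling, which moved the median by -0.12. Hey1 differed by 1.57, Heyl by 1.05, Msc by 1.05, Id1 by 0.98, Id3 by 0.88, Hes1 by -0.57 and Twist2 by -0.57, with adjusted p-values of at most 0.000684. Id2, at 0.13 (adjusted p = 0.309), passed without mutant replicate 1 (0.24, adjusted p = 0.0372).

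Because Id proteins bind E proteins, the summed FPKM of Id1 to Id4 was set over that of Tcf3, Tcf4 and Tcf12 in each sample. At day 0 the ratio was 1.31, 1.31 and 1.25 in control cells, 6.28, 6.20 and 5.22 with full-length NFIA and 5.01, 4.88 and 4.95 with the mutant. Both constructs lay above the controls in all samples. On the log2 scale, full-length NFIA lay 2.19 and the mutant 1.94 above the controls, each with an exact two-sided permutation p of 0.1, the smallest that 3 against 3 samples allow. At day 7 the ratio was 2.47, 2.44 and 3.17 in control cells, 2.04, 1.61 and 1.62 with full-length NFIA and 2.51, 2.35 and 1.93 with the mutant. Full-length NFIA now lay below the controls (-0.62, exact p = 0.1), and the mutant overlapped them (-0.25, exact p = 0.3). With forskolin the differences were -0.42 (exact p = 0.1) and -0.03 (exact p = 0.6). No p over these 6 comparisons can pass 0.05. Id3 made up 51.8% to 75.2% of the Id sum in every sample, and the share of Id2 was 27.5% to 33.4% in forskolin-treated full-length NFIA-expressing cells against 9.09% to 22.1% in all other samples.

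**Figure D5:**
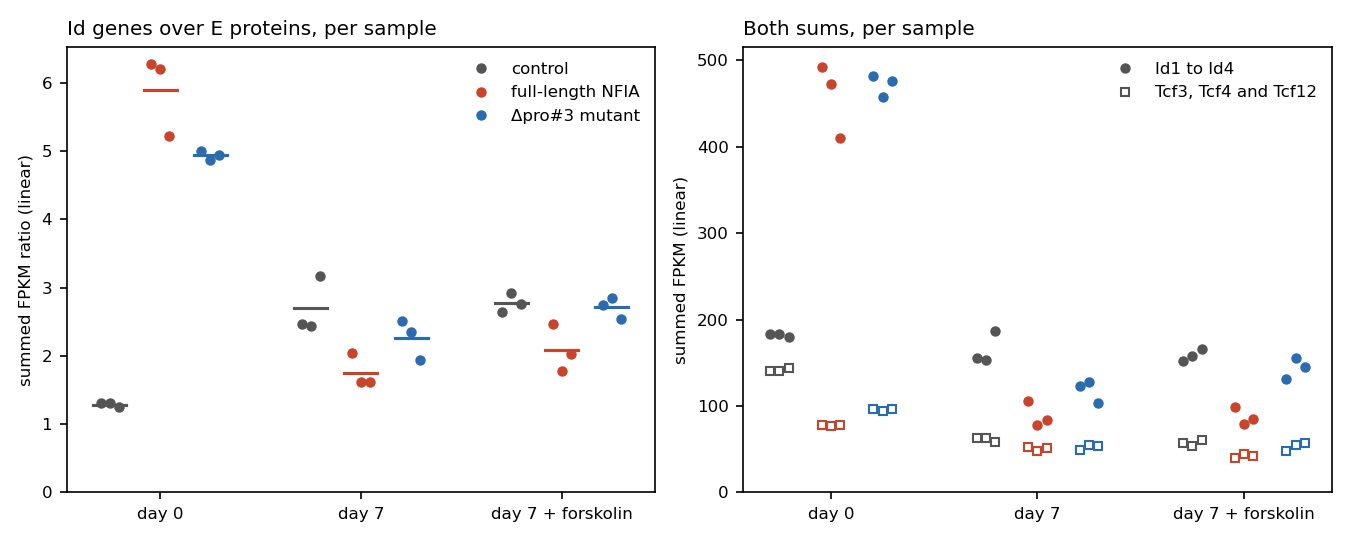
Left, ratio of the summed FPKM of Id1 to Id4 to that of Tcf3, Tcf4 and Tcf12 in each sample (linear axis from 0, bars at the means of 3 samples), and right, the 2 sums themselves (Id filled circles, E proteins open squares), by condition and coloured by construct as in the left panel. At day 0 the ratio is 5.22 to 6.28 with full-length NFIA and 4.88 to 5.01 with the mutant against 1.25 to 1.31 in control cells, with a higher Id sum and a lower E protein sum.

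The E proteins moved against the Id genes at day 0. Tcf3 averaged 44.2, 29.9 and 32.8 FPKM in control, full-length NFIA- and mutant-expressing cells, Tcf4 47.9, 21.1 and 30.2, and Tcf12 49.4, 26.8 and 32.4. All 3 fell with both constructs, as did 35.6% of all genes with full-length NFIA and 29.7% with the mutant, by 0.55, 1.15 and 0.86 on the log2 scale with full-length NFIA and by 0.42, 0.65 and 0.59 with the mutant. Of the 4 myogenic factors that the members restrain, 3 were tested at day 0, and all 3 fell with full-length NFIA and 2 with the mutant, where 35.6% and 29.7% of all genes fell. Myog, which encodes myogenin, averaged 162, 1.96 and 16.3 FPKM at day 0, and Myf5 28.5, 2.86 and 13.3. Myod1 averaged 43.7, 17.8 and 41.7, with log2 fold changes of -1.25 (adjusted p = 7.93e-10) and -0.07 (adjusted p = 0.219). Myf6 (MRF4) was under 1 FPKM in all 9 day 0 samples. At day 7 Myog averaged 1275, 200 and 489 FPKM, Myf6 126, 0.544 and 36.0, Myod1 73.2, 24.6 and 41.4, and Myf5 27.04, 3.74 and 37.3. All 4 were lower with full-length NFIA (41.1% of all genes were), while with the mutant 3 were lower (27.5%) and Myf5 was higher (21.3%, log2 fold change 0.45, adjusted p = 0.00528).

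Among 26 genes of the BMP pathway, which feeds the Id genes, 17 were tested at day 0 and 9 were higher and 6 lower with full-length NFIA, 7 higher and 4 lower with the mutant. Over all tested genes 37.7% were higher and 35.6% lower with full-length NFIA, and 32.5% and 29.7% with the mutant. The 3 BMP genes with the largest changes were the same with both, namely the antagonist Fst (3.75 and 1.70), the inhibitory Smad6 (2.70 and 1.54) and the ligand Bmp4 (2.27 and 1.34). At day 7 with full-length NFIA 4 were higher and 12 lower of 19, where 31.3% and 41.1% of all genes were, led by Grem1 (-4.01), Gdf5 (-2.11) and Chrdl1 (1.96). Among 25 genes of the Notch pathway, 20 were tested at day 0, with 9 higher and 7 lower with full-length NFIA and 7 higher and 8 lower with the mutant. The receptor Notch3 (-2.23), the glycosyltransferase Lfng (2.13) and the ligand Dll1 (-1.99) changed most with full-length NFIA, and Jag2 (-1.71), Notch3 (-1.33) and Lfng (1.27) with the mutant. With forskolin 3 of 21 tested Notch genes rose and 6 fell in control cells and likewise with the mutant, and 2 rose and 16 fell with full-length NFIA, where 13.5%, 23.9% and 41.5% of all genes fell. Notch3 rose by 1.60 in control cells, 0.57 with full-length NFIA and 1.15 with the mutant, and Lfng fell most with full-length NFIA, by 1.60. With full-length NFIA at day 0 the median log2 fold change was 0.22 over the BMP genes and 0.07 over the Notch genes, beside 0.01 over all genes, and with forskolin in the same cells it was -0.27 over the Notch genes beside -0.15, against -0.08 beside -0.05 in control cells and -0.12 beside -0.06 with the mutant.

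Of a list of 20 further genes linked to the repression of myogenic factors, 14 were tested at day 0, and 3 were higher and 7 lower with full-length NFIA, 4 higher and 7 lower with the mutant, with medians of -0.12 and -0.11, beside the all-gene shares given for the BMP genes. The list also holds Hes6, a relative of Hes1 known to promote myogenesis, which is among the 7 that fell with each construct. It fell by 2.18 with full-length NFIA, followed by Hdac9 (-1.79) and Zeb1 (-1.77). With the mutant Hdac9 (-1.56), the tendon factor Scx (-1.20) and Zeb1 (-1.09) changed most. At day 7, of the 14 tested, 7 were higher and 5 lower with full-length NFIA (31.3% and 41.1% of all genes), and 5 higher and 6 lower with the mutant (21.3% and 27.5%). Mdfi, an inhibitor that holds myogenic factors in the cytoplasm, changed most with both and was higher (1.24 and 0.87).

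Across the 9 group means of log2(FPKM + 1), Id1 and Id3 had a Pearson r of 0.90, Id2 and Id3 0.81, Id1 and Id2 0.73 and Hey1 and Heyl 0.82, while Hes1 and Hey1 had -0.53. These are descriptions over 9 points that share libraries and treatments. The genes most like each member by this measure were Sh3gl3 for Id3 (0.98), Xpa for Msc (0.98), Rin3 for Heyl (0.97), D10Wsu102e for Hes1 (0.97), Oxr1 for Id1 (0.96), Ampd3 for Hey1 (0.95), Elovl5 for Id2 (0.95) and Zfp703 for Twist2 (0.94). The next genes in that order were Tmem179b and Synj1 for Id3, Esyt1 and Clcn5 for Msc, Cntfr and Cadm4 for Heyl, Sdc3 and Tshz1 for Hes1, Tlr2 and Slx4 for Id1, Gm13889 and Kcnj15 for Hey1, Fzd1 and Acap2 for Id2, and Cables1 and Pgd for Twist2.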

How the data were processed

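Strand-specific polyadenylated RNA libraries of C2C12 cells were made in 9 groups of 3 samples. Per the labels, reads were aligned with STAR (2.5.3a) to mm9. The authors deposited FPKM values per gene for each sample, and the annotation behind them is not given in the sources used here. Each FPKM was a whole multiple of the value of 1 fragment (tolerance 0.05, 100% of values), so fragments were recovered, with 9567769 to 27230965 per library. No pair of replicates agreed within sampling noise (chi-squared per gene 1.52 to 14.2 over 27 pairs).

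Genes with a mean of 0.5 FPKM or more in the fit were tested on log2(FPKM + 1) with limma 3.58.1 (trend, R 4.3.3) in 21 comparisons, 6 of them interactions, with Benjamini-Hochberg adjustment. Fold changes on this scale understate changes of low genes. Each fit took all samples of the times it compared, which share 1 estimate of the spread. A call was an adjusted p under 0.05, and a second call also required over 3-fold. The Id to E protein ratio was tested by exact permutation (SciPy 1.17.1). Alternatives were a pseudocount of 0.1, median-ratio scaling, no filter, a minimum mean of 5 FPKM, fits of the compared groups alone, no variance trend, a replicate block, limma-voom on fragments and leaving out each library. The fits were also run on counts simulated with a fixed dispersion, few changed genes and no outlying libraries. That setting is simpler than these data and cannot give their error rate here. All members, myogenic factors and E proteins were named, and from each other list up to 3 tested genes with the largest change in the comparison described. The members, lists and tests were chosen with earlier results of these data known. Promoters came from RefSeq (GRCm38.p6) and gene positions from NCBIM37.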

Additional observations from a re-analysis of the deposited data

Results flagged for a closer look

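For 28 of the differences between constructs in a change over time or in a forskolin response, the test of the difference itself passed an adjusted p of 0.05 (limma, over all tested genes). Each of the 6 comparisons tested 8 members. For the change over time, 71.2% of all genes passed for full-length NFIA against control, 44.7% for mutant against control and 63.5% between the constructs. For the forskolin response these shares were 30.6%, 4.97% and 21.7%. The values here are log2 differences. The change from day 0 to day 7 differed between full-length NFIA-expressing and control cells for Id1 (-1.97), Id2 (-2.08), Id3 (-2.31), Hes1 (1.94), Heyl (1.22), Twist2 (1.25) and Msc (1.31). Between Δpro#3 mutant-expressing and control cells it differed for Id1 (-1.11), Id2 (-1.85), Id3 (-1.97), Hes1 (1.73), Heyl (1.71) and Msc (1.01). Between mutant and full-length NFIA it differed for Id1 (0.86), Id2 (0.23), Id3 (0.34), Heyl (0.49) and Twist2 (-1.35).

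The response to forskolin differed between full-length NFIA-expressing and control cells for Id1 (-0.84), Id2 (0.48), Hes1 (-0.40), Hey1 (-1.81), Heyl (-0.85) and Twist2 (-0.60). Between mutant-expressing and control cells it differed for Heyl (-0.75). Between mutant and full-length NFIA it differed for Id1 (0.90), Hes1 (0.41) and Hey1 (1.5). Those of Id1, Id3, Hes1, Twist2 and Heyl that lost their call without a single library are given with their p-values above.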

How the results depend on the processing

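Of 3639 tested values of the 168 gene results under the alternatives, 3414 kept their direction and their side of the threshold. Many of these could not change direction. Another filter, no variance trend, the compared groups alone and the replicate block leave the fold change as it was. So does leaving out a library of a group outside the comparison, and in all of these only the p-value could move. The count of members changed by forskolin with full-length NFIA was 3 and became 5 with median-ratio scaling or with voom on fragments. The count with a different forskolin response between full-length NFIA and control was 6 and became 3 with that scaling or with no filter on low values, and 3 to 6 without single libraries. With voom that count lost Id1 and Hes1 (adjusted p = 0.0528 and 0.0531). Between the mutant and control it was 1 and became 2 with a minimum mean of 5 FPKM or with voom, and 0 to 2 without single libraries. Between the mutant and full-length NFIA it was 3 and became 1 with that scaling, no filter or voom, and 1 to 4 without single libraries. Members past 3-fold between the constructs were 0 and became 1 at day 0, 1 at day 7, 2 with forskolin and 1 in forskolin response with a pseudocount of 0.1 or with voom. For full-length NFIA against control at day 7 they were 0 and became 1 with those or with median-ratio scaling, and over time in control cells 1 and became 2 with voom. The cause was not tested.

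Direction turned only for values that missed the threshold both ways. With median-ratio scaling these were Id2 between constructs under forskolin (-0.0069) and Twist2 under forskolin with full-length NFIA (0.054, and 0.073 with voom). With voom they were Id3 under forskolin with full-length NFIA (0.0052), the Heyl response between constructs (-0.028) and the Twist2 change over time between mutant and control (0.083). The Hes1 response between mutant and control turned with a pseudocount of 0.1 (-0.042) and with voom (-0.095), as did the Msc response between constructs (0.32 and 0.30).

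Without single libraries, values spanned 0 as follows. Twist2 at day 0 with full-length NFIA ran from -0.069 to 0.18. Between the constructs at day 7 Id1 ran from -0.13 to 0.29 and Hey1 from -0.17 to 0.37. Id1 ran from -0.11 to 0.23 over time in control cells, from -0.0048 to 0.34 under forskolin in control cells and from -0.028 to 0.39 under forskolin with the mutant. Among forskolin responses, Id3 ran from -0.082 to 0.18 between full-length NFIA and control, while between mutant and control Id1 ran from -0.16 to 0.28, Hes1 from -0.073 to 0.084 and Twist2 from -0.24 to 0.065. Between constructs Id2 ran from -0.096 to 0.080 and Msc from -0.19 to 0.017. The Twist2 change over time between mutant and control ran from -0.25 to 0.053.

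The replicate numbers did not pair the samples (mean correlation of same-numbered deviations 0.0168 at day 0, -0.0371 at day 7 and -0.00377 with forskolin). With the replicate number as a block, Twist2 between constructs at day 0 (adjusted p = 0.0501), Id2 at day 7 for the mutant against control (adjusted p = 0.0736) and against full-length NFIA (adjusted p = 0.0759), the Id1 response between full-length NFIA and control (adjusted p = 0.0506) and the Hes1 response between constructs (adjusted p = 0.0546) missed the threshold, Id2 under forskolin for the mutant against control passed it (adjusted p = 0.0252), and no other call changed. Depth limits Id4, with 230 fragments in all, and Twist1, with 11.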
